A study of Arabidopsis thaliana with 6 samples.

Results

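The comparison described here asks, gene by gene, whether the effect of the ibm1-3 genotype on leaf messenger RNA was the same after high light as in low light. Its members are the genes with a value in all 3 deposited expression tables, 20575 of the 25402 genes listed in at least 1 of them. Arabidopsis thaliana plants of the Columbia background grew in a greenhouse in long days, and rosette leaves were sequenced in 6 libraries. Leaves of ibm1-3 plants (2 libraries) and WT plants (2 libraries) were taken after 48 hours of high light at an age of 30 days. Leaves of ibm1-3 plants (1 library) and WT plants (1 library) were taken in low light at 40 days. Each pair of libraries, ibm1-3 and WT, is a table of its own, normalized apart from the others. Light therefore cannot be told apart from the age of the plants or from the table, and the labels give no hour of harvest. The labels describe Illumina and BGI sequencing without saying which samples had which, so the platform cannot be told apart from light either. They also leave unsaid where in the gene the ibm1-3 mutation lies and whether the libraries of a group stem from different plants. The p-values below therefore rest on library-to-library spread, which may be of technical origin.

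IBM1 encodes a jumonji-type histone demethylase that clears a silencing mark from the bodies of transcribed genes, and loss-of-function mutants gain DNA methylation within genes. Strong light makes leaves rebuild the photosynthetic apparatus, deposit anthocyanin, adjust sugar and starch metabolism and turn on stress hormones such as jasmonate, salicylate and abscisic acid. For each gene the log2 ratio of ibm1-3 over WT was taken within a pair and centred on the median of all genes in that pair. The difference reported is the mean centred ratio of both high light pairs minus the centred ratio of the low light pair. A positive difference means that the ratio was higher in high light, and a negative one that it was lower. The errors given with it are standard errors from limma over 3 pairs, which has 1 residual degree of freedom and assumes that the lone low light pair varies as the high light pairs do. A test could be made for 15786 members, and 14586 of them were above the detection floor in all 6 libraries. The floor was 1 FPKM (fragments per kilobase of gene, scaled to library size) in high light and 15 reads in low light.

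IBM1 itself (AT3G07610; chromosome 3, 2426069 to 2432913, forward strand, TAIR10 as deposited) did not check the labels. It stood at 17.6 and 7.46 FPKM in the high light libraries labelled ibm1-3, against 13.8 and 8.34 FPKM in those labelled WT, and the groups overlapped. In low light it had 399 reads in the library labelled ibm1-3 and 643 in that labelled WT. Its difference was 0.55 ± 0.22 (adjusted p = 0.0464 by limma). It was no call when the block was left out (adjusted p = 0.803) and changed sign to -0.16 without the first ibm1-3 high light library. Throughout, ibm1-3 and WT name libraries by their labels. High light pair 1 held 12502408 (ibm1-3) and 12121246 (WT) estimated fragments, no depth is given for pair 2, and the low light pair held 13099267 (ibm1-3) and 15425082 (WT) reads. Markers of leaf mesophyll were abundant in every library, and the flower genes AP3 and PI were listed at 0 in both low light libraries. AP3 and SEP3 were under 1 FPKM in all 4 high light libraries, while SEP3 had 79 reads in ibm1-3 and AG 20 in low light, both listed at 0 in WT.

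The genotype ratios in high light bore almost no relation to those in low light. Across the 15786 genes, which are not independent replicates, the mean high light ratio and the low light ratio correlated at -0.07 (Pearson) and -0.02 (Spearman). The ratios of both high light pairs correlated at 0.97 (Pearson). The median absolute gap was 0.14 on the log2 scale between the high light pairs and 0.69 between high and low light. By limma with Benjamini-Hochberg adjustment at 0.05, the ratio was higher in high light in 4827 genes (30.6% of those tested) and lower in 5152 genes (32.6%). Without the replicate block 752 genes (4.76%) were higher and 405 (2.57%) lower, all 1157 of them also calls of the blocked fit. By size alone, 2714 genes (17.2%) were at least 2-fold higher with either high light pair, and 2326 (14.7%) at least 2-fold lower. Both of these differences share the low light pair. In 607 genes (3.85%) the ratio was at least 2-fold up in both high light pairs and at least 2-fold down in low light, and in 139 genes (0.881%) the converse held. Without centring, which moves the median difference of all genes to 0.21, against -0.04 with it, 62.1% of the calls were higher, against 48.4%.

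**Figure D1:**
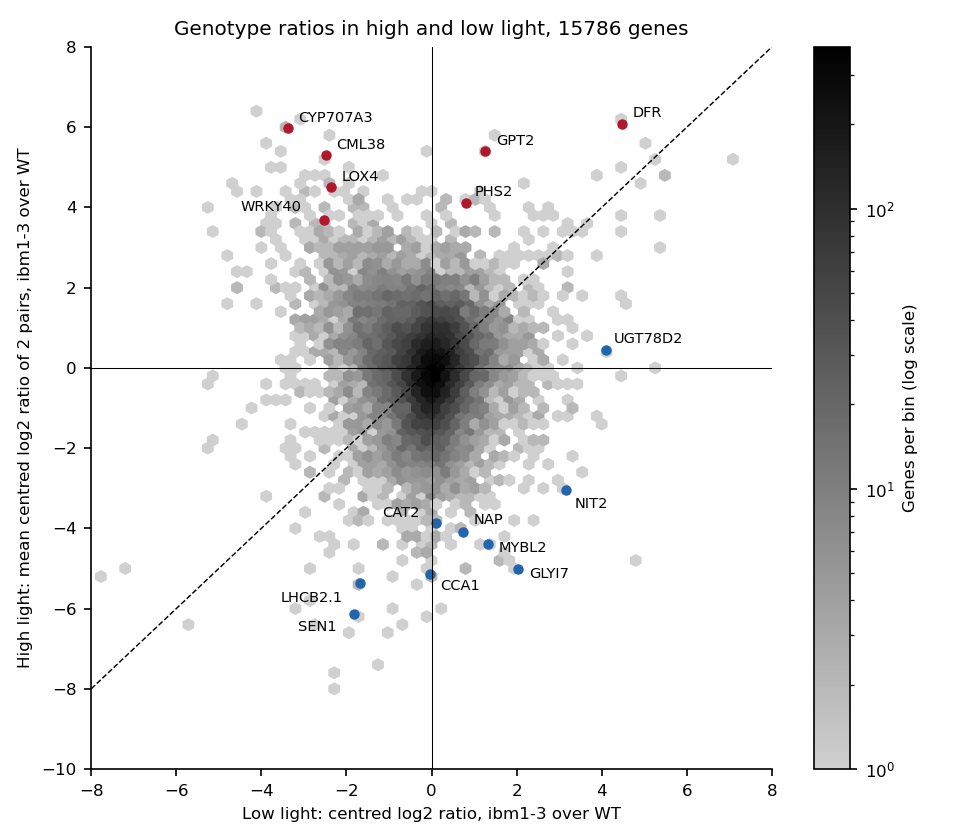
Centred log2 ratio of ibm1-3 over WT in high light (vertical axis, mean of 2 pairs) against that in low light (horizontal axis, 1 pair) for 15786 genes, as bins shaded by the number of genes on a log scale. Red points are named genes with a positive difference and blue points those with a negative one. The cloud does not follow the dashed line of equal ratios, CYP707A3, CML38, LOX4 and WRKY40 lie at the upper left, and NIT2, GLYI7 and MYBL2 at the lower right.

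The 12 genes with the highest differences, taken among called genes above the floor in every library and of sufficient level, were all up in ibm1-3 in both high light pairs and down in ibm1-3 in low light. CYP707A3 (AT5G45340; chromosome 5, 18368532 to 18371021, reverse strand), which breaks down abscisic acid, had 175 and 219 FPKM in ibm1-3 and 2.44 and 2.70 FPKM in WT in high light, but 52 reads in ibm1-3 and 528 in WT in low light. Both ibm1-3 libraries were far above both WT libraries in high light, and the order was turned round in low light, for a difference of 9.36 ± 0.16 (adjusted p = 7.10e-12 by limma). AT3G02840, an ARM repeat protein by its annotation, had the highest of these, 9.40 ± 0.19, with 115 and 113 FPKM in ibm1-3 against 2.01 and 1.86 FPKM in WT in high light and 21 against 283 reads in low light. RRTF1, a redox-responsive ERF transcription factor, differed by 8.58 ± 0.22, with 210.1 and 164 FPKM in ibm1-3 and 7.17 and 3.44 FPKM in WT in high light. ERF13, of the same family, differed by 7.75, MYB15, a factor of cold and lignin responses, by 7.72, and SRO5, a gene of salt and oxidative stress, by 8.63. The F-box gene FBS1 differed by 8.22 and the calmodulin-like CML38 by 7.79. The others of the 12 were AT1G11670 (a MATE efflux protein by its annotation, 9.10), AT1G33760 (an integrase-type DNA-binding protein, 8.77), AT2G27080 (a hydroxyproline-rich glycoprotein, 8.68) and AT3G10720 (a pectin methylesterase inhibitor family protein, 7.72). All 12 passed also without the replicate block.

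Genes listed at 0 in a low light library reach further, as bounds that hold if a listed 0 means under 15 reads. That is not certain, since F3H, a flavonoid gene with 66.4 and 57.9 FPKM in ibm1-3 and 14.6 and 14.1 FPKM in WT in high light, was listed at 0 in both low light libraries, and a 0 may also stand for a gene that was not counted. PHI-1, a phosphate-responsive cell wall gene, had 173 and 155 FPKM in ibm1-3 and 1.66 and 1.69 FPKM in WT in high light. In low light it was listed at 0 in ibm1-3 and had 251 reads in WT, so its difference was at least 10.44 on that condition. On the other side AT1G09500, of the Rossmann-fold family, had 5.34 and 7.15 FPKM in ibm1-3 and 133 and 164 FPKM in WT in high light. It had 451 reads in ibm1-3 and was listed at 0 in WT in low light, a difference of -9.74 or lower on the same condition.

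The 12 genes with the lowest differences were down in ibm1-3 in both high light pairs, and all but AT2G41250 were up in ibm1-3 in low light. GLYI7 (AT1G80160; chromosome 1, 30151006 to 30152190, forward strand), a glyoxalase family gene, had 3.06 and 3.06 FPKM in ibm1-3 against 68.9 and 98.7 FPKM in WT in high light and 456 against 108 reads in low light. Its difference of -7.06 ± 0.22 (adjusted p = 3.36e-10 by limma) was the lowest of the 12 chosen by this rule. CHAT, which makes the leaf volatile hexenyl acetate, differed by -6.53, and the cell wall genes CSLB03 and FRA8 by -6.30 and -6.26. NIT2, a nitrilase, was 32.3 and 53.3 FPKM in ibm1-3 and 228 and 347 FPKM in WT in high light, whereas low light gave 6846 reads in ibm1-3 and 746 in WT. The sign of its ratio turned, and its difference was -6.19 ± 0.10. The trypsin inhibitor KTI1 (-6.02), the glycosyltransferase UGT74E2 (-5.72) and MYBL2 (-5.73), a repressor of anthocyanin synthesis, turned in the same way. Outside the 12, the lanosterol synthase LAS1 (-4.73) and the SAUR-like gene AT3G61900 (-5.09) did so too. ALD1, which makes the immune signal pipecolic acid, stood at -5.69, AT1G14250, a nucleoside phosphatase family gene, at -5.88, and the unannotated AT4G16000 at -5.68. AT2G41250, a dehalogenase-like hydrolase, did not turn. It had 592 reads in ibm1-3 and 580 in WT in low light, and its difference of -6.23 came from high light alone, where ibm1-3 had 2.45 and 2.44 FPKM and WT 151 and 156 FPKM. KTI1 and AT4G16000 lost their call when the block was left out (adjusted p = 0.0522 and 0.054).

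**Figure D2:**
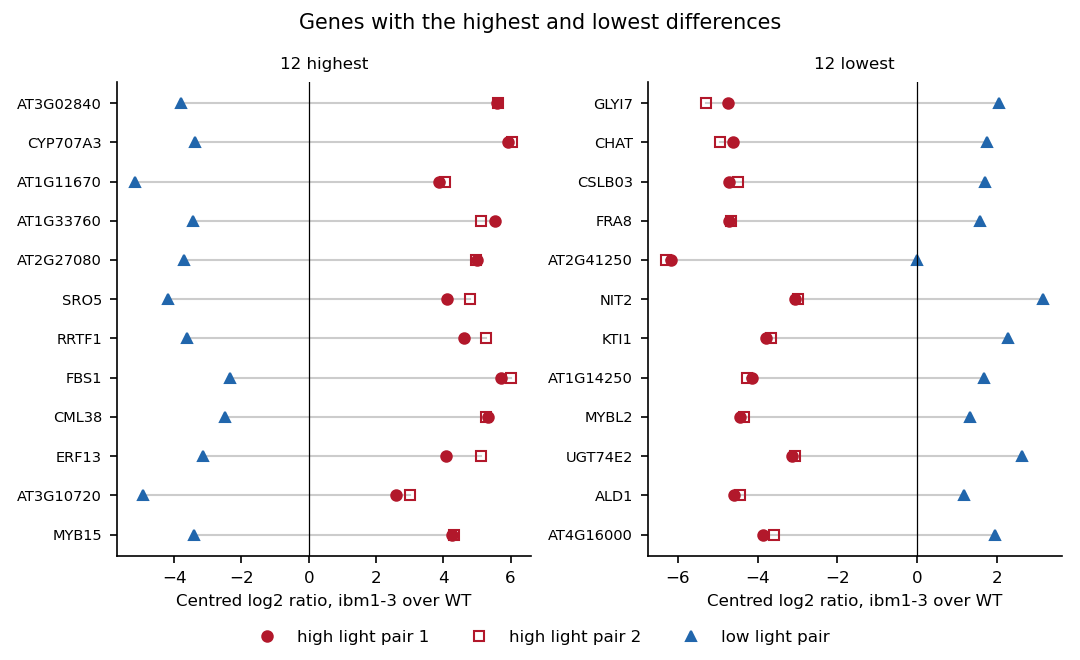
Centred log2 ratio of ibm1-3 over WT (horizontal axis) of the 12 genes with the highest and the 12 with the lowest difference, in high light pair 1 (filled red circles), high light pair 2 (open red squares) and the low light pair (blue triangles). The high light pairs lie close together, and the low light pair lies across 0 from them in every gene except AT2G41250, which is near 0 in low light.

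Gene groups were compared as lists, and members named beyond the rule given with the methods were chosen after their values were seen. Counts of calls stand against 30.6% higher and 32.6% lower over all genes tested, and 4.76% and 2.57% without the replicate block. A value alone in brackets after a gene is its difference, high light minus low light, on the log2 scale.

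Touch and early stress genes, which a leaf transcribes within minutes of wounding, touch or elicitors, were nearly all higher. Of 24 tested, 22 were higher in high light and 2 (ERF104 and ZAT6) did not pass. The 22 were all at least 2-fold higher with either pair, and 14 had opposite ratios. The median difference was 4.43, against -0.04 over all genes tested, and without the replicate block 17 passed, all higher. CML38, a calcium sensor, had 635 and 494 FPKM in ibm1-3 and 13.4 and 10.3 FPKM in WT in high light, but 292 reads in ibm1-3 and 1600 in WT in low light. The low light ratio was -2.49 with a 95% counting interval of -2.67 to -2.31. TCH4, a cell wall xyloglucan enzyme induced by touch, had 186 and 343 FPKM in ibm1-3 against 10.3 and 17.3 FPKM in WT in high light and 45 against 534 reads in low light, a difference of 7.58 ± 0.13. WRKY40, a transcription factor of early defence, differed by 6.22 ± 0.11, with 419 and 449 FPKM in ibm1-3 and 29.4 and 26.2 FPKM in WT in high light and 1015 reads in ibm1-3 and 5680 in WT in low light. For CML38, TCH4 and WRKY40 the ibm1-3 libraries were the higher in high light and the lower in low light. The deadenylase gene CAF1A (5.01), the ubiquitin ligase gene PUB22 (6.43) and the ethylene-response factors ERF11 (5.64) and ERF6 (5.09) behaved likewise. The touch calmodulin gene TCH3 turned mainly in low light, where it had 7912 reads in ibm1-3 and 41649 in WT, against 1389 and 1132 FPKM in ibm1-3 and 724 and 542 FPKM in WT in high light. DDF1, an activator of stress genes, was listed at 0 in the low light ibm1-3 library, and CML39, not tested, at 0 in both low light libraries.

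WRKY factors bind a short element called the W-box, so the promoters of these genes are shown for it. Of the 24 promoters (RefSeq, 250 bases before to 50 after the gene start, TAIR10.1), 13 held TTGACC or TTGACT on either strand (54.2%), as did 32.4% of 27443 promoters of protein-coding genes. Among the 12 genes with the highest differences 7 held it (58.3%), and among the 12 lowest 3 (25%). In the light signalling list, where most genes were lower, 10 of 22 promoters held it (45.5%). It was in 30% of promoters of the indolic glucosinolate list, whose tested genes were all higher. The shares were 18.2% for morning clock and 8.33% for dark and sugar starvation genes. The 250 bases before the start are given 5′ to 3′ for the 2 list members with the largest difference that hold the element there and were above the floor in all libraries, CML38 (chr1:28768139-28768388, reverse strand) and TCH4 (chr5:23308681-23308930, reverse strand), with the matches in capitals.
CML38: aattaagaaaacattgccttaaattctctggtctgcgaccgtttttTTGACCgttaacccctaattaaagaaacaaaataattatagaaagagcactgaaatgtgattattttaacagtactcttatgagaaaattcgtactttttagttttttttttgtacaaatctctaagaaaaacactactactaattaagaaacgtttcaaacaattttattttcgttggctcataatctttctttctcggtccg
TCH4: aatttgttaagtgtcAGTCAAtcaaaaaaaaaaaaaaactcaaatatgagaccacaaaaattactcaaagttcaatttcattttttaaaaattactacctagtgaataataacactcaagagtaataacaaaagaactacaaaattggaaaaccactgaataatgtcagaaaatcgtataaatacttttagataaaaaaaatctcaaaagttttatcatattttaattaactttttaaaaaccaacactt
A match describes the letters and does not show that a factor binds there.

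Jasmonate is made from membrane lipids by lipoxygenases (LOX), AOS, AOC and OPR3, perceived with JAZ repressors, and switched off by CYP94 enzymes. Of 24 jasmonate genes tested, 20 were higher in high light, 2 lower (ORA59 and VSP2) and 2 did not pass (LOX2 and PDF1.2B). Their median difference was 1.82, and 17 were at least 2-fold higher, with 9 of opposite ratios and 8 higher without the replicate block. Among the enzymes, LOX4 (AT1G72520; chromosome 1, 27308513 to 27312756, forward strand) had 446 and 504 FPKM in ibm1-3 and 17.3 and 17.4 FPKM in WT in high light, and 1659 reads in ibm1-3 and 8343 in WT in low light, a difference of 6.87 ± 0.10 (adjusted p = 5.27e-12 by limma). LOX3 differed by 4.80 and OPR3 by 4.01, whereas AOS (1.14) and AOC2 (0.94) differed less. LOX2, the most abundant of the 3 lipoxygenases tested on the FPKM scale, had 848 and 870.4 FPKM in ibm1-3 against 1003 and 1044 FPKM in WT in high light and 20514 against 25840 reads in low light. It was a little lower in ibm1-3 in both lights, with a difference of -0.15 ± 0.09 (adjusted p = 0.173 by limma). The repressor JAZ5 was 352 and 313 FPKM in ibm1-3 and 37.3 and 34.9 FPKM in WT in high light, and 699 reads in ibm1-3 and 3883 in WT in low light, a difference of 5.44 ± 0.10. JAZ8 (5.90), JAZ7 (4.51) and JAZ1 (3.44) were also higher, and JAZ9 was the least moved repressor of the 8 tested (0.44). Of the inactivating enzymes, CYP94C1 had 82.4 and 113 FPKM in ibm1-3 and 8.52 and 9.13 FPKM in WT in high light, and 237 reads in ibm1-3 and 1836 in WT in low light.

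Among genes of the branch that also needs ethylene, the regulator ERF1 was higher (1.81, adjusted p = 1.02e-05 by limma, 0.0783 with no block) and the regulator ORA59 lower. ORA59 was 11.4 and 12.7 FPKM in ibm1-3 and 36.3 and 35.5 FPKM in WT in high light and 399 reads in ibm1-3 and 954 in WT in low light, lower in ibm1-3 throughout, with a difference of -0.55 ± 0.14 that was no call when the block was left out (adjusted p = 0.359). The defensin PDF1.2, a target of both, had 22.5 and 36.0 FPKM in ibm1-3 and 631 and 969 FPKM in WT in high light, and 44 reads in ibm1-3 and 6734 in WT in low light. PDF1.2 was far lower in ibm1-3 in either light, and less so in high light, which counts among the 20 higher (2.25 ± 0.10), though close copies of it could share reads. VSP2, a storage protein of the wound branch, differed by -0.52 (adjusted p = 0.00895 by limma, and 0.396 without the replicate block).

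**Figure D3:**
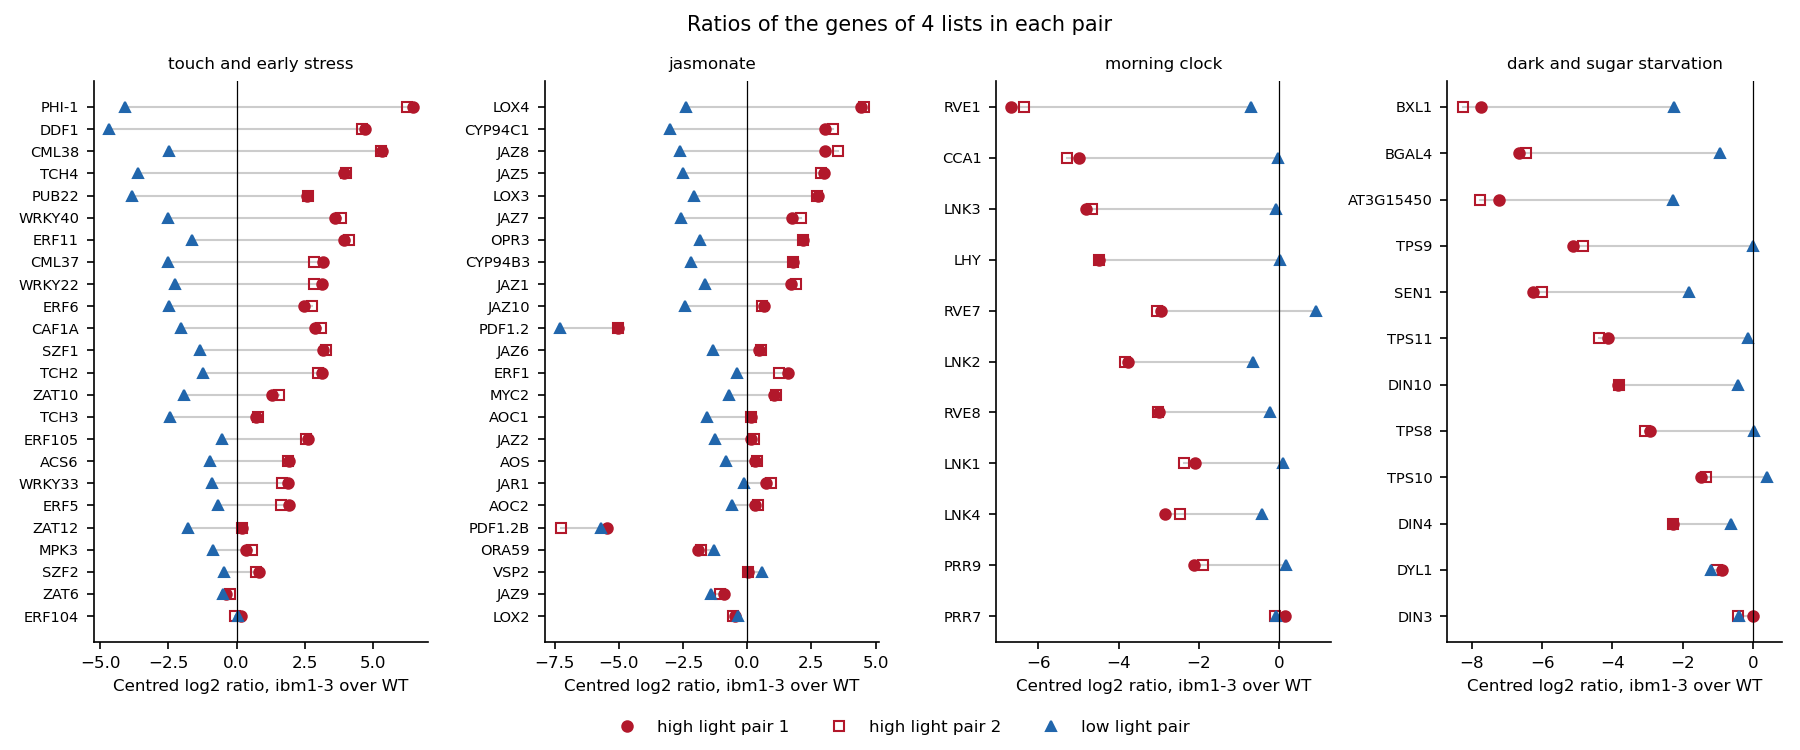
Centred log2 ratio of ibm1-3 over WT (horizontal axis, own scale in each panel) of every tested gene of 4 lists, in high light pair 1 (filled red circles), high light pair 2 (open red squares) and the low light pair (blue triangles), with genes ordered by the size of the difference. Most touch and jasmonate genes lie right of 0 in high light and left of it in low light, and most morning clock and dark or sugar starvation genes lie further left in high light than in low light. Values of PHI-1, DDF1, PDF1.2B, RVE7, PRR9, BXL1 and BGAL4 include a library at the floor.

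**Figure D4:**
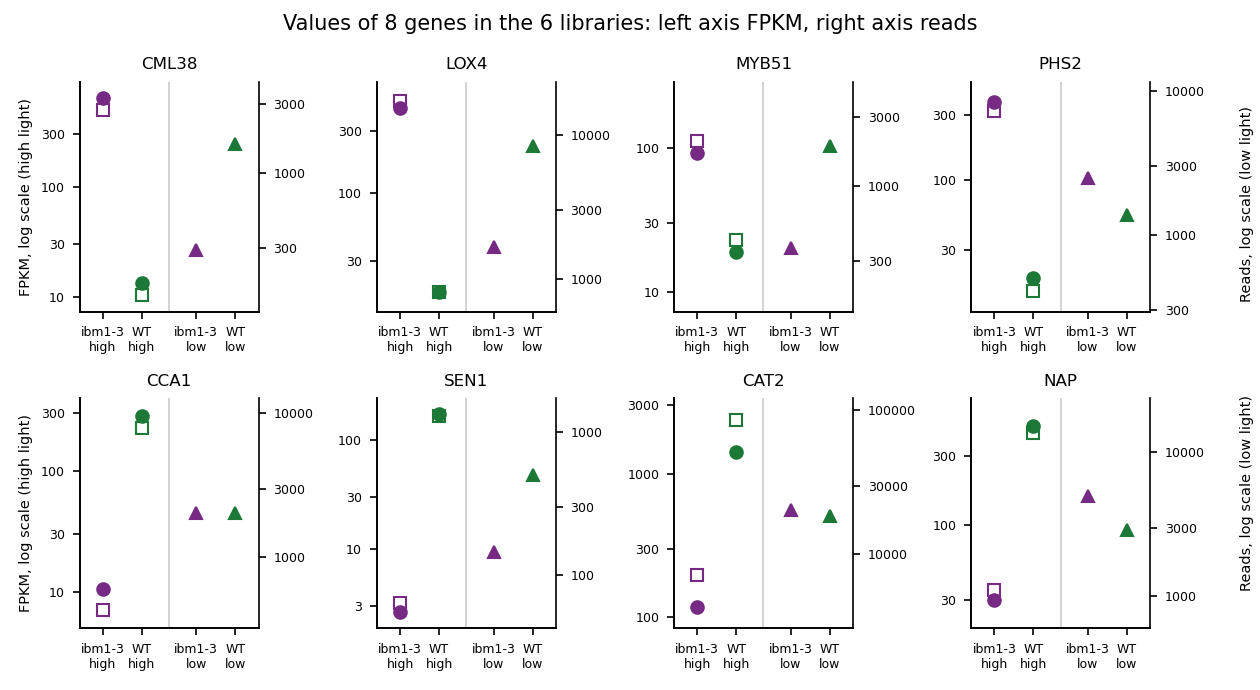
Level of 8 genes in each library, as FPKM on the left log axis for high light (circles pair 1, squares pair 2) and as reads on the right log axis for low light (triangles), with ibm1-3 in purple and WT in green. CML38, LOX4 and MYB51 are higher in ibm1-3 in high light and lower in low light, PHS2 is higher in both, and CCA1, SEN1, CAT2 and NAP are lower in ibm1-3 in high light.

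Glucosinolates are sulphur-rich defence compounds of the cabbage family, made from tryptophan (indolic) or methionine (aliphatic). The indolic genes moved in one direction: all 10 tested were higher in high light, 8 of them at least 2-fold, with a median difference of 2.92, and 6 passed without the replicate block. MYB51, the regulator of the indolic branch in leaves, had 92.4 and 112 FPKM in ibm1-3 against 18.8 and 22.8 FPKM in WT in high light and 373 against 1902 reads in low light, a difference of 4.41 ± 0.11. CYP83B1, which commits the indole oxime to the pathway, differed by 2.81, the sulphotransferase SOT16 by 3.19 and CYP81F2, which modifies the finished indolic product, by 3.43. CYP79B2 and CYP79B3, which make that oxime, differed by 3.03 and 2.33. CYP83B1 was the exception among these without the replicate block (adjusted p = 0.0837). The methyltransferase IGMT1 was lower in ibm1-3 in both lights, 11.7 and 18.8 FPKM against 27.7 and 37.4 FPKM in WT in high light, and its difference was small (0.42 ± 0.13).

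The aliphatic branch differed the other way. Of 12 aliphatic genes tested 1 was higher, 7 were lower and 4 did not pass, and the median difference was -0.71. Without the replicate block limma called 0 of them, and 2 had an unadjusted p under 0.05. CYP79F1, its entry enzyme, was higher in ibm1-3 in both lights, 184 and 173 FPKM against 91.9 and 85.7 FPKM in WT in high light and 8596 reads against 2761 in WT in low light. The chain-elongation gene MAM1 (-0.90), the aminotransferase BCAT4 (-1.38) and SOT18 (-1.12) were lower, with ratios near or above 0 in high light and above 1 in low light. SOT17, a related sulphotransferase, was the member higher in high light (0.85 ± 0.13), and MAM3 had nearly the same ratio in both (2.65 and 2.55 in high light, 2.52 in low light).

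Genes induced by cold, drought and abscisic acid were mostly higher in high light. Of 14 tested, 10 were higher, 3 lower (HAB1, ABI1 and ABI2) and 1 did not pass (HAI1, -0.24 ± 0.19). Those 4 are phosphatases that restrain abscisic acid signalling, and of them HAB1 alone kept its call with no block. The median difference was 2.70, and 4 higher and 1 lower passed without the replicate block. RD29A, a classic desiccation gene, had 556 and 285 FPKM in ibm1-3 against 39.0 and 21.2 FPKM in WT in high light and 121 against 302 reads in low light, a difference of 4.88 ± 0.12 (adjusted p = 4.85e-11, and 0.0559 without the replicate block). The dehydrin ERD10 was 3168 and 1517 FPKM in ibm1-3 and 245 and 120.3 FPKM in WT in high light, where pair 1 gave about the same ratio (3.45) as pair 2 (3.36) despite the gap in level, and its difference was 4.52. RD22 differed by 5.20, the dehydrin COR47 by 2.66 and NCED3, the rate-limiting enzyme of abscisic acid synthesis, by 2.78. HAB1 had 29.4 and 24.5 FPKM in ibm1-3 and 86.3 and 69.0 FPKM in WT in high light but 2240 reads in ibm1-3 and 1284 in WT in low light, a difference of -2.56 ± 0.11. ABI1 (-1.07) and ABI2 (-1.34) were no calls when the block was left out (adjusted p = 0.249 and 0.166). The cold regulators CBF1 and CBF3, not tested, were listed at 0 in both low light libraries, and CBF1 stood at 8.83 and 9.22 FPKM in ibm1-3 and 0.49 and 0.61 FPKM in WT in high light.

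Heat shock genes encode chaperones and their regulators. Of 7 tested 4 were higher, 1 lower (HSP90.1) and 2 did not pass, beside 30.6% higher and 32.6% lower of all genes, with a median of 0.68. With no block limma called 0, and 1 had an unadjusted p under 0.05. HSP101, a chaperone that dissolves protein aggregates, had 2.77 and 2.15 FPKM in ibm1-3 and 3.94 and 3.04 FPKM in WT in high light, and 355 reads in ibm1-3 and 1105 in WT in low light. It was lower in ibm1-3 in both lights, and less so in high light (0.90 ± 0.23). HSP90.1, also lower in ibm1-3 in both lights, was lower in high light by -0.93, HSP70 differed by 0.84 and HSFA7A by 1.64.

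Salicylate and defence genes differed in both directions. Of 26 tested 13 were higher, 10 lower and 3 did not pass, beside 30.6% and 32.6% of all genes, and the median was 0.21; without the replicate block 6 were higher and 3 lower. The higher genes included the WRKY factors WRKY18 (4.16), WRKY53 (3.95) and WRKY46 (3.55), and CBP60G (3.26), an activator of salicylate synthesis. WRKY18 had 496 and 361 FPKM in ibm1-3 and 55.4 and 39.3 FPKM in WT in high light, and 2168 reads in ibm1-3 and 5010 in WT in low light. The lower genes included those of the mobile signal pipecolic acid, ALD1 and FMO1. FMO1, which hydroxylates it, had 1.42 and 2.98 FPKM in ibm1-3 and 13.7 and 18.7 FPKM in WT in high light, and 148 reads in ibm1-3 and 84 in WT in low light, a difference of -4.01 ± 0.28. WRKY70 (-2.30), WRKY54 (-1.61) and WRKY38 (-1.19) were lower too, so that members of the WRKY family went both ways. The salicylate marker PR1 was higher in ibm1-3 in either light, 44.7 and 83.8 FPKM against 11.0 and 12.5 FPKM in WT in high light and 2083 reads against 390 in WT in low light, and its difference did not pass (-0.27 ± 0.21, adjusted p = 0.295 by limma). ICS1, the salicylate synthesis enzyme, differed by 0.68 ± 0.10, a call that was lost without the replicate block (adjusted p = 0.453).

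The circadian clock of plants pairs morning genes, led by the MYB factors CCA1 and LHY and their RVE relatives, with evening genes such as TOC1 and GI that they repress. Most morning genes were strongly lower in ibm1-3 in high light, and their low light ratios were smaller, from -0.71 (RVE1) to 0.90 (RVE7). Of 11 tested 10 were lower, all by at least 2-fold, and PRR7 did not pass. The median difference was -3.15, with a median low light ratio of -0.07, and 7 passed without the replicate block. CCA1 (AT2G46830; chromosome 2, 19246681 to 19248914, forward strand) had 10.7 and 7.09 FPKM in ibm1-3 and 284 and 225 FPKM in WT in high light, but 2021 reads in ibm1-3 and 2032 in WT in low light. Both ibm1-3 libraries were far below both WT libraries in high light, and the low light interval of its ratio, -0.13 to 0.05, includes 0. Its difference was -5.09 ± 0.13 (adjusted p = 9.00e-11 by limma, 0.0239 without the replicate block). LHY differed by -4.51, and the coactivator genes LNK3 and LNK2 by -4.66 and -3.15. RVE1 was 1.40 and 1.97 FPKM in ibm1-3 and 121 and 131 FPKM in WT in high light, a difference of -5.80 ± 0.23, though its low light values were only 35 reads in ibm1-3 and 56 in WT. RVE2, not tested, had 9.12 and 9.34 FPKM in ibm1-3 and 117 and 127 FPKM in WT in high light and was listed at 0 in both low light libraries. PRR7 had 37.1 and 21.5 FPKM in ibm1-3 and 28.6 and 18.9 FPKM in WT in high light, so the groups overlapped.

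Evening genes were less uniform. Of 6 tested 3 were higher (TOC1, GI and LUX), 1 was lower (ZTL) and 2 did not pass (ELF3 and ELF4). TOC1 had 65.5 and 61.6 FPKM in ibm1-3 and 19.4 and 18.2 FPKM in WT in high light, and 250 reads in ibm1-3 and 639 in WT in low light, a difference of 2.88 ± 0.13 that passed also without the replicate block (adjusted p = 0.0272). For GI, WT was at the floor in a high light library (0.92 and 1.05 FPKM, against 8.04 and 8.11 FPKM in ibm1-3), and its difference was at least 1.94. LUX differed by 1.39, and the photoreceptor-like F-box gene ZTL by -1.62 (adjusted p without the replicate block 0.296 and 0.0797). PRR3 and FKF1, not tested, were listed at 0 in both low light libraries, with 25.0 and 22.1 FPKM of FKF1 in ibm1-3 and 4.69 and 3.45 FPKM in WT in high light. Since the labels give no hour of harvest and CCA1 differs within the high light pairs, the part that sampling time has in these differences was not tested.

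Light-regulated and morning genes often carry a G-box, CACGTG, in the promoter. It was found in 9 of the 11 morning clock promoters (81.8%), against 7.68% of the 27443 promoters and 9.21% of those of genes tested. The 250 bases before the RefSeq start are shown for RVE1 (chr5:5692993-5693242, reverse strand) and CCA1 (chr2:19245341-19245590, forward strand), chosen by the same rule, with the G-box in capitals. The RefSeq start of CCA1 lies 1090 bases before the start in the deposited file, and that of RVE1 is the same.
RVE1: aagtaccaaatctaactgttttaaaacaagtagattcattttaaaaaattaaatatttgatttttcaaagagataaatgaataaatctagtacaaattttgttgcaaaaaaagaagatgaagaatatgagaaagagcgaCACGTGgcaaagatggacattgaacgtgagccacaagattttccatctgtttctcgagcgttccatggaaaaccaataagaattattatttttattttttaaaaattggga
CCA1: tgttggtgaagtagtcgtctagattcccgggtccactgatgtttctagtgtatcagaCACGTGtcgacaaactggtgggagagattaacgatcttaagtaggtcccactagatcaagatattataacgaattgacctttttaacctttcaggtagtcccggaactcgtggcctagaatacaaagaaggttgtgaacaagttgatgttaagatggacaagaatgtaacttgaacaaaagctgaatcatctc
Of the other motifs searched, the evening element (AAAATATCT) was in 2 of the 11 (18.2%, against 2.82% of all promoters) and the CCA1 binding site (AAAAATCT) in 0, against 7.88% of all.

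Genes that leaves switch on in darkness and when sugar runs short were the lowest of all lists by median. Of 12 tested 10 were lower, each by at least 2-fold, and 2 (DIN3 and DYL1) did not pass, with a median of -3.75 and 7 lower without the replicate block. SEN1 (AT4G35770; chromosome 4, 16944941 to 16946192, forward strand), also called DIN1, had 2.64 and 3.16 FPKM in ibm1-3 and 172 and 166 FPKM in WT in high light, and 146 reads in ibm1-3 and 503 in WT in low light. It was lower in ibm1-3 in both lights, and further in high light (-4.32 ± 0.16, adjusted p = 1.26e-09 by limma). BXL1, a sugar-repressed xylosidase, was 0.93 and 0.75 FPKM in ibm1-3 and 180.4 and 251 FPKM in WT in high light, with 731 reads in ibm1-3 and 3394 in WT in low light. Since the ibm1-3 values lay under the floor, its difference was -5.75 or lower, and that of BGAL4, a galactosidase, -5.63 or lower. TPS11, a trehalose phosphate synthase family gene of sugar sensing, had a low light ratio near 0 (-0.13), and 7.15 and 6.18 FPKM in ibm1-3 and 105 and 104 FPKM in WT in high light. Its relatives TPS9 (-4.97), TPS8 (-3.02) and TPS10 (-1.80) were lower as well, TPS8 and TPS10 not without the replicate block (adjusted p = 0.0554 and 0.0764). DIN10, a raffinose synthase family gene, differed by -3.39. ASN1, the dark-induced asparagine synthetase, was not tested, with 0.13 and 0.22 FPKM in ibm1-3 and 2.05 and 1.56 FPKM in WT in high light.

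The I-box GATAAG, an element of many light-regulated promoters, was in 7 of these 12 promoters (58.3%) and in 14.6% of all. DIN3 and DYL1, which did not pass, hold it too. It was in 40% of indolic glucosinolate and 20.8% of touch and early stress promoters, and in 4.55% of light signalling and 0% of morning clock promoters. The 250 bases before the start are shown for AT3G15450 (chr3:5212734-5212983, forward strand) and SEN1 (chr4:16944628-16944877, forward strand), with matches on either strand in capitals. Among members above the floor in all libraries, these were the lowest that hold the I-box there. The RefSeq start of SEN1 lies 63 bases before that in the deposited file.
AT3G15450: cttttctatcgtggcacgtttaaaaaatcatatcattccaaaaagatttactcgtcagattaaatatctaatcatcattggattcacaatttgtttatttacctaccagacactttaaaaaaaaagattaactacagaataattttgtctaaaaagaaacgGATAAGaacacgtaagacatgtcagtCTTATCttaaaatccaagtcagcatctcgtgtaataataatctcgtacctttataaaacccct
SEN1: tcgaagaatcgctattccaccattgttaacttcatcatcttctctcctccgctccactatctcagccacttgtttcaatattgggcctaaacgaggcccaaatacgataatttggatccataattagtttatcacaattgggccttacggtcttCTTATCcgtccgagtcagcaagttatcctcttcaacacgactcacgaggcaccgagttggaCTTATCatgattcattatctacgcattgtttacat
AT3G15450 had 3.42 and 2.95 FPKM in ibm1-3 and 433 and 525 FPKM in WT in high light, with 34 reads in ibm1-3 and 161 in WT in low light.

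Starch genes, which build and break down the leaf's daily carbon store, were the reverse. Of 19 tested 17 were higher, 1 lower (BAM1) and 1 did not pass (APL1), the median was 1.34, and 6 passed without the replicate block. Here the ratios had the same sign in both lights for most members, and 0 had opposite ratios. GPT2, which carries glucose phosphate into plastids when sugar is plentiful, had 271 and 648 FPKM in ibm1-3 and 5.92 and 11.3 FPKM in WT in high light, and 2406 reads in ibm1-3 and 975 in WT in low light. Its difference was 4.15 ± 0.13 (adjusted p = 2.69e-10 by limma, 0.0721 without the replicate block). The glucan phosphatase SEX4 was 282 and 238 FPKM in ibm1-3 and 12.2 and 11.1 FPKM in WT in high light, and differed by 3.82. The debranching enzyme ISA3 differed by 3.37 and the phosphorylase PHS2 by 3.30, and the ibm1-3 libraries were the higher in both lights. BAM1, a beta-amylase, was 195 and 196 FPKM in ibm1-3 and 289 and 263 FPKM in WT in high light, a difference of -0.52 that was no call when the block was left out (adjusted p = 0.413). Many of these genes cycle with the day, and CCA1 and TOC1 differed in the same libraries as given above; the part of the clock in the starch values was not tested.

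Photosynthesis genes of the nucleus encode the light-harvesting antennae (LHC), the photosystem subunits (PSA, PSB) and the small subunit of Rubisco (RBCS). They were lower in ibm1-3 in both lights, with median ratios of -2.17 in high light pair 1, -2.17 in pair 2 and -1.47 in low light. In difference 31 of 42 were lower, 6 higher and 5 did not pass, and the median was -0.71; without the replicate block 2 passed, both lower. RCA, which reactivates Rubisco, had 1165 and 1295 FPKM in ibm1-3 and 7923 and 8511 FPKM in WT in high light, and 93812 reads in ibm1-3 and 107441 in WT in low light, so nearly all of its difference of -2.78 ± 0.10 came from high light. PSBO2, of the oxygen-evolving complex, differed by -2.02. LHCB2.1 was 11.5 and 30.4 FPKM in ibm1-3 and 386 and 1064 FPKM in WT in high light and differed by -3.68, while its close copy LHCB2.3 differed by 1.82, a split that is uncertain because such copies can share reads. The same doubt covers RBCS3B (-2.31) and the LHCB1 genes. RCA and PSBO2 passed without the replicate block (adjusted p = 0.0372 and 0.0487), and LHCB2.1 and RBCS3B did not.

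Genes of photoprotection and antioxidants, which dissipate excess light and remove reactive oxygen, were split 6 higher to 12 lower of 18 tested, with a median of -1.62, and 2 higher and 3 lower without the replicate block. Catalase genes parted: CAT2, the leaf catalase of photorespiration, had 118 and 197 FPKM in ibm1-3 and 1429 and 2392 FPKM in WT in high light, and 20335 reads in ibm1-3 and 18343 in WT in low light, a difference of -3.98 ± 0.09. CAT3 was 2158 and 3365 FPKM in ibm1-3 and 742 and 1067 FPKM in WT in high light, a difference of 1.42. ZEP, the epoxidase of the xanthophyll cycle, differed by -3.47, and the peroxidase GPX7 by -4.96. ELIP1, an early light-induced protein, had 192 and 395 FPKM in ibm1-3 and 139 and 259 FPKM in WT in high light, with 2600 reads in ibm1-3 and 285 in WT in low light, so its -2.88 came from low light. BAP1, a restrainer of cell death, was higher (4.16), as was VTC5, an enzyme of vitamin C synthesis (2.85). Without the replicate block, CAT2 and ZEP passed, and CAT3, GPX7 and ELIP1 did not.

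Light signalling genes, the photoreceptors and the factors they control, were lower in 18 of 22, higher in 1 (PHYB) and did not pass in 3, with a median of -1.25 and 3 lower without the replicate block. HY5, the factor that promotes light responses, had 6.07 and 4.30 FPKM in ibm1-3 and 37.6 and 19.3 FPKM in WT in high light, and 111 reads in ibm1-3 and 81 in WT in low light, a difference of -3.08 ± 0.23 (adjusted p = 3.64e-07 by limma, 0.103 without the replicate block). The B-box genes BBX25 (-4.45) and BBX24 (-2.45) and the blue light receptor CRY1 (-2.46) were lower as well. PHYB, the red light receptor, was 43.6 and 40.6 FPKM in ibm1-3 and 17.6 and 15.6 FPKM in WT in high light, and 1282 reads in ibm1-3 and 2406 in WT in low light, a difference of 2.02 ± 0.12. Of these 5, CRY1 passed without the replicate block.

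Senescence and chlorophyll breakdown genes were mostly lower in ibm1-3 in high light and mostly higher in low light. SAG21 and SAG12 were higher in ibm1-3 in high light. In difference 10 of 11 tested were lower and SAG21 was higher, the median was -2.29, and 5 were lower without the replicate block. SAG21 had 1267 and 1330 FPKM in ibm1-3 and 669 and 637 FPKM in WT in high light. NAP, a NAC factor that drives leaf senescence, had 29.8 and 35.0 FPKM in ibm1-3 and 484 and 433 FPKM in WT in high light, and 4942 reads in ibm1-3 and 2891 in WT in low light, a difference of -4.83 ± 0.13 (adjusted p = 1.07e-10 by limma). ORE1, a factor of the same family, had 22.2 and 32.0 FPKM in ibm1-3 and 160.3 and 204 FPKM in WT in high light, whereas low light gave 3214 reads in ibm1-3 and 1398 in WT, and its sign turned (-4.19). PAO and SGR1, which take chlorophyll apart, differed by -2.86 and -2.29, and all 4 passed without the replicate block. SAG12, the cysteine protease used as the marker of late senescence, had 156 reads in the low light ibm1-3 library and was listed at 0 in WT, with 2.16 and 1.72 FPKM in ibm1-3 and 0.13 and 0.01 FPKM in WT in high light. Since WT is under the floor in every library, neither ratio is more than a bound and its call says nothing firm. SAG29, not tested, had 159 reads in ibm1-3 and 0 listed in WT in low light. The low light plants were 40 days old and the others 30, so age cannot be told apart from light here.

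Late anthocyanin genes mostly had ratios well above 0 in both lights, and their differences went both ways. The median ratios of 13 late anthocyanin genes were 3.33 and 3.65 in the high light pairs and 3.68 in low light, and in difference 5 were higher, 5 lower and 3 did not pass, with 1 at least 2-fold higher and 4 at least 2-fold lower. BGLU10 and DTX35 had no large ratio in high light (-0.83 and -0.80 for BGLU10, -0.33 and -0.41 for DTX35). The median difference, -0.03, changed sign with no centring (0.22), so it has no firm direction. DFR, which makes leucoanthocyanidin, had 294 and 379 FPKM in ibm1-3 and 4.18 and 3.95 FPKM in WT in high light, and 31515 reads in ibm1-3 and 1385 in WT in low light, a difference of 1.62 ± 0.14 that was no call when the block was left out (adjusted p = 0.073). UGT78D2, which glucosylates flavonols and anthocyanins, was the member that changed most: 60.3 and 52.6 FPKM in ibm1-3 and 35.0 and 33.0 FPKM in WT in high light, but 6437 reads in ibm1-3 and 367 in WT in low light, a difference of -3.64 ± 0.12 (adjusted p = 3.73e-10, 0.0217 without the replicate block). BGLU10, a glucosyltransferase of anthocyanins despite its name, was lower in ibm1-3 in high light and higher in low light (-2.06). The high light pairs parted for SCPL10, with ratios of 1.91 and -0.38 against 3.68 in low light, which gives differences of -1.76 with pair 1 and -4.06 with pair 2. For 5MAT the WT high light values (0.43 and 0.49 FPKM, against 44.2 and 42.0 FPKM in ibm1-3) were under the floor, so its call as lower is uncertain.

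Of 8 early flavonoid genes 1 was higher (PAL2, 1.46) and 5 were lower, with a median of -0.68. Without the replicate block limma called 0, and 2 had an unadjusted p under 0.05. Chalcone synthase, TT4, had 449 and 894 FPKM in ibm1-3 against 10.6 and 21.6 FPKM in WT in high light and 81684 against 2178 reads in low light, and the difference was -0.07 ± 0.09 (adjusted p = 0.517 by limma). PAL1, the first enzyme of phenylpropanoid synthesis, differed by -0.67 and C4H, the second, by -0.96. The calls of 4CL3 and CHIL as lower include WT values under the floor and are uncertain. Among 10 regulators 2 were higher, 4 lower and 4 did not pass. MYBL2, a repressor of anthocyanin synthesis, was 12.1 and 17.5 FPKM in ibm1-3 and 223 and 287 FPKM in WT in high light but 1661 reads in ibm1-3 and 641 in WT in low light, a difference of -5.73 ± 0.11 that passed also without the replicate block (adjusted p = 0.018). The activators parted, MYB90 higher (1.38) and MYB75 lower (-0.97), neither without the replicate block (adjusted p = 0.344 and 0.331). TTG1, the scaffold of the activator complex, differed by -1.42 and the repressor MYB4 by 1.60 (adjusted p without the replicate block 0.251 and 0.121).

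Genes of DNA methylation and silencing were low on the FPKM scale. Of 24 tested 12 were higher, 2 lower and 10 did not pass, beside 30.6% higher and 32.6% lower of all genes, with a median of 0.54. Without the replicate block 1 passed, beside 4.76% higher and 2.57% lower of all genes. That gene, CMT3, the DNA methyltransferase that writes the methylation gained in IBM1 mutants, had 2.94 and 4.22 FPKM in ibm1-3 and 0.80 and 1.02 FPKM in WT in high light, and 32 reads in ibm1-3 and 96 in WT in low light. It was higher in ibm1-3 in high light and lower in low light, and as a WT value lay under the floor the difference was at least 3.15 (adjusted p = 2.56e-05 by limma). CMT2, its relative, had 8.01 and 6.08 FPKM in ibm1-3 and 1.85 and 1.04 FPKM in WT in high light and differed by 2.68 (adjusted p = 0.113 without the replicate block). AGO4 and IDN2, of the RNA-directed pathway, differed by at least 2.06 and 2.61, and lost the call without the block (adjusted p = 0.0506 and 0.273). SUVH4, the methyltransferase of the mark that IBM1 removes, had 1.68 and 1.49 FPKM in ibm1-3 and 1.80 and 1.40 FPKM in WT in high light, a difference of -0.21 ± 0.36 that did not pass. RDM1, 1 of the 2 lower genes, rested on 1 library, since its difference of -1.36 turned to 0.03 without the second WT high light library, and SUVH9 differed by -0.89. EDM2, which promotes full-length IBM1 transcripts, did not pass (0.35 ± 0.14).

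Flowering genes had 3 higher, 3 lower and 3 not passing of 9 tested, near the 30.6% higher and 32.6% lower of all genes. With no block limma called 0, and 4 had an unadjusted p under 0.05. FT, the flowering signal made in leaves, had 15.7 and 14.5 FPKM in ibm1-3 and 29.5 and 27.6 FPKM in WT in high light, and 162 reads in ibm1-3 and 122 in WT in low light (-1.56 ± 0.16). Its target SOC1 differed by -1.22 and SVP, a repressor of both, by -1.16. SPL4 differed by 2.54 and TEM1, a repressor of FT, by 0.51. FLC, the repressor removed by winter cold, differed by at least 1.54 but did not exceed 1.47 FPKM in any high light library.

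Hormone and nutrient lists were short and mixed, and stand beside 30.6% higher and 32.6% lower of all genes. Of 6 auxin response genes 3 were higher, led by IAA19 (4.51, with 22.7 and 14.4 FPKM in ibm1-3 and 2.73 and 1.79 FPKM in WT in high light), IAA3 (3.33) and IAA2 (1.50), and GH3.3, which conjugates auxin, was lower (-3.35). GH3.3 had 1689 reads in ibm1-3 and 370 in WT in low light, against 5.01 and 7.17 FPKM in ibm1-3 and 9.00 and 14.3 FPKM in WT in high light. Type A response regulators, which damp cytokinin signalling, were higher in 2 of 6 (ARR5 and ARR7) and lower in 4. ARR7 had 21.6 and 28.5 FPKM in ibm1-3 and 0.71 and 1.39 FPKM in WT in high light, a difference of at least 5.16, and ARR5 differed by 1.92. Among the lower members ARR16 differed by -3.09, ARR4 by -1.67 and ARR9 by -2.88 or lower. GH3.3, IAA19, ARR7 and ARR9 passed without the replicate block. Of 7 phosphate starvation genes 4 were higher and 1 lower (PAP17, -0.45), with SPX1, a phosphate sensor, at 1.49, SRG3 at 2.49, the sulpholipid gene SQD1 at 1.02 and the transporter PHT1;4 at 2.83 or higher. SRG3 passed without the replicate block (adjusted p = 0.0438) and the other 4 did not.

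Of 8 nitrate genes 4 were higher and 3 lower, beside 30.6% and 32.6% of all genes. NIA1, a nitrate reductase, had 10.8 and 10.4 FPKM in ibm1-3 and 173 and 184 FPKM in WT in high light, and 91 reads in ibm1-3 and 200 in WT in low light, a difference of -3.17 ± 0.14. NIA2, the main reductase of leaves, was lower in ibm1-3 by about the same ratio in each pair, -2.58 and -2.70 in high light and -2.50 in low light. The ammonium-assimilation genes GLU1 (-2.31) and GLN2 (-1.70) were lower and UPM1, of sirohaem synthesis, higher (1.40). NIA1 and GLU1 passed without the replicate block.

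**Figure D5:**
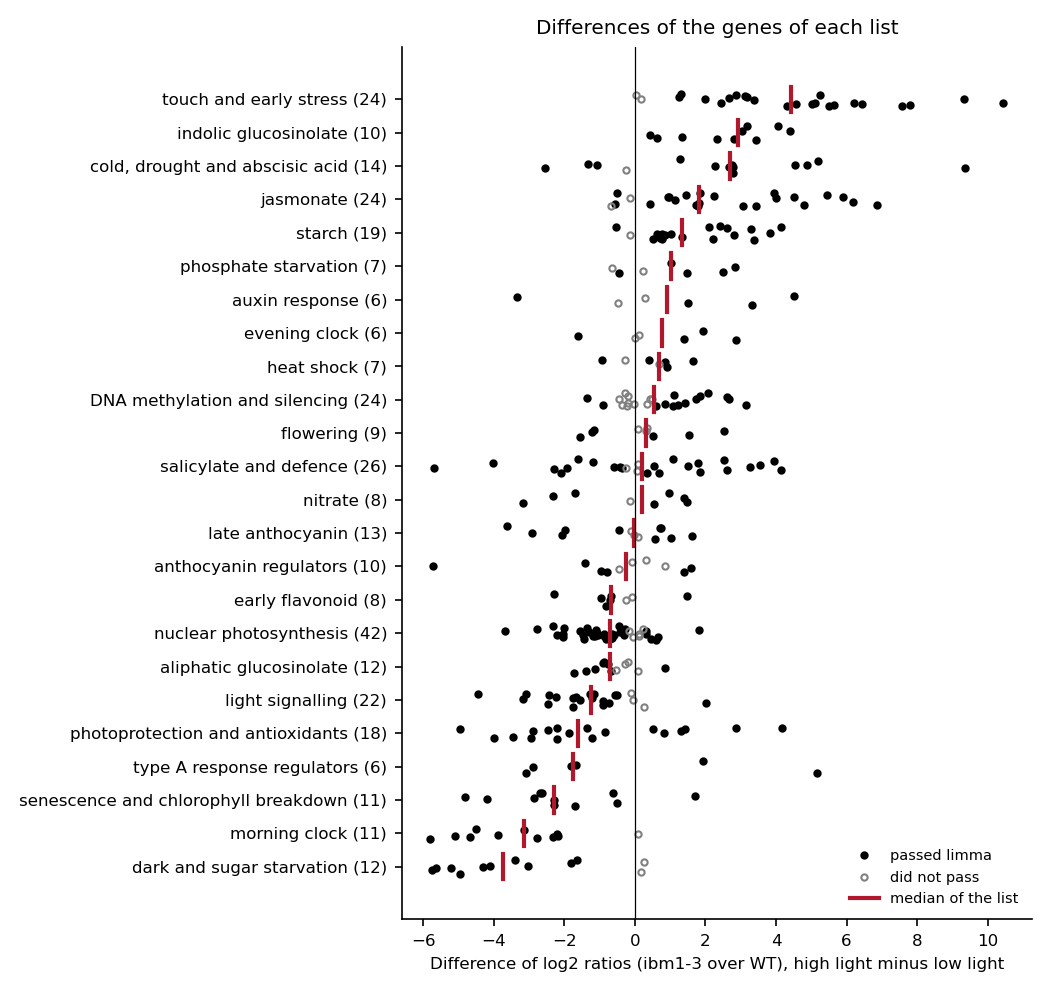
Difference of log2 ratios (ibm1-3 over WT), high light minus low light (horizontal axis), of each tested gene of 24 lists, with the number tested in brackets. Filled points passed limma, open points did not, and red bars are list medians, which run from -3.75 for dark and sugar starvation to 4.43 for touch and early stress. Points are shifted vertically at random so that they do not overlap.

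Genes of both organelle genomes and ribosomal protein genes were counted as well, beside 30.6% higher and 32.6% lower of all genes. Of 56 chloroplast genes tested 9 were higher, 17 lower and 30 did not pass, and 5 were at least 2-fold higher and 10 at least 2-fold lower, with a median of -0.12 that changed sign without centring (0.14). Of 25 mitochondrial genes 15 were higher and 1 lower, 9 of them at least 2-fold higher, with a median of 1.03. The groups were not tested against each other. ATP9, an ATP synthase subunit, had 24.9 and 21.6 FPKM in ibm1-3 and 12.9 and 8.42 FPKM in WT in high light, and 254 reads in ibm1-3 and 399 in WT in low light, a difference of 1.57 ± 0.18. Of 39 cytosolic ribosomal protein genes 22 were higher and 11 lower, with a median of 0.56, and RPL5B, for example, differed by 1.58 ± 0.10. These 39 were found by annotation wording or gene symbol and may not cover the whole family. Without the replicate block limma called 0 in all 3 groups, with an unadjusted p under 0.05 for 5 chloroplast, 4 mitochondrial and 11 ribosomal protein genes.

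Markers of leaf cell types were counted too, beside 30.6% higher and 32.6% lower of all genes. In bulk leaves fewer cells of a type and less RNA per cell cannot be told apart. Of 6 mesophyll markers, of which RCA, RBCS1A and LHCB1.3 are also in the photosynthesis list and CAT2 in that of photoprotection, 5 were lower and 1 higher in difference, and their summed level was 3894 and 7068 FPKM in ibm1-3 and 21501 and 34228 FPKM in WT in high light, against 165663 reads in ibm1-3 and 230075 in WT in low light. CA1, a carbonic anhydrase of mesophyll chloroplasts, had 53.0 and 77.5 FPKM in ibm1-3 and 1397 and 1897 FPKM in WT in high light (-2.04 ± 0.09), and GLDP1, of photorespiration, differed by -1.45. All 4 epidermal markers tested were higher, and their list summed to 239 and 437 FPKM in ibm1-3 and 138 and 230 FPKM in WT in high light, against 5335 reads in ibm1-3 and 9544 in WT in low light. FDH, a wax and cutin gene of the epidermis, differed by 1.99 and KCS6, of wax synthesis, by 1.36. The epidermal identity factors ATML1 and PDF2 differed by 2.08 and 1.40. CER1 and GL2, not tested, were lower in ibm1-3 in high light. CER1 had 0.3 and 0.27 FPKM in ibm1-3 and 3.85 and 4.63 FPKM in WT there, and was listed at 0 in both low light libraries. GL2 had 2.92 and 0.36 FPKM in ibm1-3 and 4.98 and 0.66 FPKM in WT in high light. In low light GL2 had 100 reads in ibm1-3 and 65 in WT. Of 5 phloem and vessel markers 4 were higher, with XCP2, a protease of vessel elements, at 4.02, and the phloem protein genes PP2-A1 at 1.03 and SEOR1 at 0.77. The sucrose carrier SUC2 (0.53) changed sign in 2 of the fits that leave out 1 library. The phloem and vessel list summed to 448 and 549 FPKM in ibm1-3 and 234 and 282 FPKM in WT in high light, against 8221 reads in ibm1-3 and 9649 in WT in low light. Of 6 guard cell markers HT1 was higher (1.22), KAT1 lower (-0.96) and 4 did not pass. SCR, the root marker with values, differed by -0.67. With no block 1 of the 4 epidermal, 1 of the 5 phloem and vessel and 2 of the 6 mesophyll markers passed. In that fit limma called 0 of 6 guard cell markers (1 with an unadjusted p under 0.05) and 0 of 1 root marker (0 unadjusted). The part of cell type in the gene groups above was not tested.

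Gene length was set against the calls for all genes, since the tables were counted in different ways. With genes in 5 bins of equal number by length, in the longest bin (2436 to 16444 bases) 9.34% were at least 2-fold lower, against 14.9% to 17.5% in the other 4 bins, while at least 2-fold higher genes made up 15.8% of the longest and 16.9% to 18.7% of the others. The part of length in single genes was not tested.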

How the data were processed

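RNA sequencing of 6 rosette leaf libraries was deposited as 3 tables, each with 1 ibm1-3 and 1 WT library. Reads were aligned with Bowtie2 to TAIR10, per the submitters' processing notes; for versions, counting program and strand setting, nothing is stated in those sources. The table of high light pair 1 held estimated counts and FPKM values, per the file headers, and that of pair 2 held FPKM-like values of the authors under a header that gives no unit, taken as FPKM from their range. The low light table held a signal of the authors, read counts times a factor per library, whose smallest nonzero value is 15 reads and which lists other genes at 0; the reads were recovered from the step between values, and 100% of nonzero values were whole within 0.01 steps. In the deposited FPKM columns 0.01 stood for no fragment.

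Genes were joined on their identifier. Rows whose identifier carried a transcript suffix, 1003 of 23699 in high light pair 2, were left out before genes were counted. Values under the floor of 1 FPKM or 15 reads were set to the floor, with no pseudocount, so the difference of such genes is a bound, provided that a listed 0 is a low value. Genes were tested when at least 1 library of each pair reached the floor and the low light pair held 50 reads or more. The test was limma (version 3.58.1, R 4.3.3, with trend) on 3 centred log2 ratios, with the pair, which is the table and the replicate number, as the block, 9.79 prior degrees of freedom, a two-sided test and Benjamini-Hochberg adjustment at 0.05. The pairing rests on the shared table, and deviations of same-numbered high light libraries from their group means correlated at 0.88. For the high light pair 1 table the header gives no replicate number for its columns. Titles and descriptions of some high light libraries differ on the replicate number, and libraries were paired by the table that holds them. On simulated data in which 200 of 15786 genes were changed, limma recovered 90% of changes of 1 and 98.7% of changes of 2 on the log2 scale, with 3.33% and 3.80% false among the calls. The simulation gave the low light pair the spread of the high light pairs, so it cannot check that assumption. It also changed far fewer genes than the 9979 called, so these shares are not error rates for the real calls. edgeR (version 4.0.16) was used only for TMM scaling of counts, with no test.

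The members, lists and tests were chosen with earlier results of these data known. Genes named were IBM1, the 12 highest and 12 lowest differences among called genes above the floor in all libraries, at least 2-fold in both pairs, with a mean of 5 FPKM and 100 low light reads or more, the 5 with the largest smaller ratio in each class of opposite ratios, up to 4 called members per list by smallest p, and up to 3 members against a list's direction. Others were chosen after their values were seen. A promoter table was not used; promoters and motifs were read from the TAIR10.1 RefSeq sequence, where all 20439 genes with coordinates in both overlapped those of the deposited files. Intervals of low light ratios are exact binomial ones at 95% (Clopper-Pearson) and cover counting error only. Genes with near-identical copies may share reads.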

Additional observations from a re-analysis of the deposited data

Results flagged for a closer look

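The genotype effect differed between high and low light in 9979 genes by limma's test of the difference itself. In 607 genes the ratio of ibm1-3 over WT was up in both high light pairs and down in the low light pair, and in 139 genes the converse held; these turns of sign were counted by size and not tested as a class.

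The following genes are singled out because their effects in high and low light had opposite signs, with a difference past limma's threshold. The positive differences were 9.40 for AT3G02840, 9.36 for CYP707A3, 9.10 for AT1G11670, 8.77 for AT1G33760, 8.68 for AT2G27080, 8.63 for SRO5 and 8.58 for RRTF1. Below them came FBS1 at 8.22, CML38 at 7.79, ERF13 at 7.75, AT3G10720 at 7.72, MYB15 at 7.72 and CYP82G1, which makes a volatile terpenoid, at 7.53. CYP82G1 had 31.2 and 26.8 FPKM in ibm1-3 and 1.83 and 1.55 FPKM in WT in high light, and 19 reads in ibm1-3 and 240 in WT in low light.

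The negative differences were -7.06 for GLYI7, -6.53 for CHAT, -6.30 for CSLB03, -6.26 for FRA8, -6.19 for NIT2 and -6.02 for KTI1. AT1G14250 stood at -5.88, MYBL2 at -5.73, UGT74E2 at -5.72, ALD1 at -5.69, AT4G16000 at -5.68, AT3G61900 at -5.09 and LAS1 at -4.73.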

How the results depend on the processing

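The counts by limma, by the 2-fold rule and by opposite ratios stayed within 1.5 times the reported ones under no centring, centring on genes of at least 10 FPKM, a pseudocount, no filter, a stricter filter and no trend, and for the 2-fold and opposite counts also with either high light pair alone and with TMM-scaled counts. The exception was the replicate block. Without it, limma called 752 genes higher and 405 lower, against 4827 and 5152 with the pairing. The fits that leave out 1 high light library in turn, which also have no block, called 942 to 1254 higher and 505 to 807 lower. Losses of calls were counted only for fits that keep all 6 libraries, since leaving out 1 leaves a group with 1 library. Of the 167 genes named by rule, 88 lost their call without the block, 5 with no centring, 4 with no trend and 2 with no filter. Their direction held, except in fits that leave out 1 library: the difference ran from -0.16 to 1.21 for IBM1, from -2.79 to 0.026 for RDM1 and from -0.088 to 1.10 for SUC2, which was also negative (-0.018) in a second fit. The medians of 31 lists kept their sign except late anthocyanin, guard cell and chloroplast genome (no centring), late anthocyanin (centring on 10 FPKM, without pair 1), late anthocyanin and chloroplast genome (no filter), nitrate (stricter filter) and anthocyanin regulators (without pair 2, TMM scaling). The cause of these changes was not tested. Low light rests on 1 pair, so its spread is assumed, and depth limits low genes, which are bounds below the floor.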
